A study of Mus musculus with 59 samples.

Results

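The class I antigen presentation genes of the MHC pathway followed here, in mammary tumors of mice given a paraben or vehicle, were H2-K1, H2-D1, B2m, Tap1, Tap2, Tapbp, Psmb8, Psmb9 and Nlrc5. They are 9 of the 55421 genes with a row in the gene table, chosen by symbol, and each also had a row among the 33282 genes of the intron table. The 59 tumors fell into 3 groups, methylparaben (n = 20), propylparaben (n = 20) and vehicle (n = 19). Every mouse, vehicle included, carried the transgene as PyMT (+/-), in B6.FVB-Tg(MMTV-PyVT)634Mul/LellJ. In this model the mouse mammary tumor virus promoter drives the polyoma middle T antigen in mammary epithelium, so tumors form without a chemical. The parabens are preservatives that differ in the alkyl chain of their ester. The labels state neither dose, length of exposure nor age, nor that each tumor came from a separate mouse. The p-values below therefore measure the spread between these samples.

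MHC class I molecules show peptides from inside the cell to CD8 T cells. The immunoproteasome, which contains the subunits encoded by Psmb8 and Psmb9, cuts proteins into peptides, and the transporter formed by TAP1 and TAP2 carries these into the endoplasmic reticulum. There tapasin (Tapbp) helps to load them onto heavy chains, such as those encoded by H2-K1 and H2-D1, each paired with beta-2 microglobulin (B2m). NLRC5 is a transactivator of class I genes that acts through the SXY module of their promoters, and interferon gamma raises the whole set in most cell types.

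The promoters of the heavy chains and of B2m are shown because they carry the boxes through which NLRC5 and interferon are known to act, and that of Tap1 because Psmb9 shares it. The windows are those of RefSeq on GRCm38.p6, from 250 bases before the transcription start to 50 after it, read 5′ to 3′ on the strand of the gene. They lie at chr17:34000298-34000597 (minus strand, H2-K1, which also has a window starting 14 bases away that is not shown), chr17:35262844-35263143 (plus, H2-D1), chr2:122147437-122147736 (plus, B2m) and chr17:34187306-34187605 (plus, Tap1). Capitals mark matches on either strand to 4 motifs: a kappa B form (GGGNNTTCC), an interferon response element core (GAANNGAAA), an X2 box core (TGACG) and a Y box core (CCAAT). Only these exact forms were searched. The B2m window also holds gaaactgaaa, with a wider gap between its GAA and GAAA, and this is left in small letters. A lack of capitals is therefore not a lack of an interferon element.
H2-K1: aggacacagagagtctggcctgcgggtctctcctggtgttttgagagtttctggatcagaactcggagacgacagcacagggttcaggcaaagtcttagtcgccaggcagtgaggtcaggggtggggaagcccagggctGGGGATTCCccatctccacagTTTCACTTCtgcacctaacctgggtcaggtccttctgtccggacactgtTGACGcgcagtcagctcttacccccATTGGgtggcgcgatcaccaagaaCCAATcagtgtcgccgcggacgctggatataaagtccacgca
H2-D1: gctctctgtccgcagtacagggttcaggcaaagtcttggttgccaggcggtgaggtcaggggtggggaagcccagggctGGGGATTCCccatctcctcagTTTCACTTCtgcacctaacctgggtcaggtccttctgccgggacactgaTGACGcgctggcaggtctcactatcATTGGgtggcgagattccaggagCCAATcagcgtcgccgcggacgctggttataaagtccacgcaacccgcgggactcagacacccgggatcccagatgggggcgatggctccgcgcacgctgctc
B2m: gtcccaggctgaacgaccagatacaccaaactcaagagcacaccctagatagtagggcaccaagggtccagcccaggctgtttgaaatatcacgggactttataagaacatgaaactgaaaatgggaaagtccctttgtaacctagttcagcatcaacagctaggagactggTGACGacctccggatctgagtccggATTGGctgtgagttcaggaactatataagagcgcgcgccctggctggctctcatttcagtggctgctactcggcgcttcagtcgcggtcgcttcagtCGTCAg
Tap1: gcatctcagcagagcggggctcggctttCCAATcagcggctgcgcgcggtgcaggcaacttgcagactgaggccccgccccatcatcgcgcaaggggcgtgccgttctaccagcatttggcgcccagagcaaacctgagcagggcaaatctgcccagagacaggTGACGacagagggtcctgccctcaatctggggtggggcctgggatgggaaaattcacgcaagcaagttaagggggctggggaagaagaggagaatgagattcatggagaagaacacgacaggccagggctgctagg

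H2-K1 and H2-D1 held all 4 motifs in the same order. In both, the interferon response element core began 21 bases after the kappa B form, the X2 core 49 bases after that, and the reversed Y core 25 bases after the X2 core. A second Y core, on the other strand, began 24 bases further on in H2-K1 and 23 bases further on in H2-D1. Their longest shared run was 47 bases. B2m had the X2 core and the reversed Y core at the same distance of 25 bases. Of all 32851 promoter windows in the table, 23 windows of 20 genes (0.0700%) held this X2 and Y pair at this distance, a pattern picked after these promoters had been read. Besides the 3 members, 1 other H2 gene, H2-M3, was among the 20. Taken one at a time the motifs were common: the X2 core was in 20.8% of windows, the Y core in 37.4%, the interferon response element core in 7.52% and the kappa B form in 5.82%. Tap1 and Psmb9 are transcribed away from each other from starts 226 bases apart, and their windows overlap by 275 bases, with 1 X2 core and 1 Y core between them. Psmb8 held none of the 4 motifs in its window and Tapbp only Y cores. Entries for 7 of the 9 members were found, with none for Tap2 and Nlrc5.

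Libraries held between 1166502 and 2032789 reads on genes (median 1594892), and between 307255 and 1059351 intronic reads. Levels are the deposited normalized counts (reads scaled to a common depth and by a factor for each library), in the gene table unless the introns are named. All 11 epithelial markers passed the filter of a mean of at least 1, with summed levels of 2051 to 3207 in methylparaben tumors, 2313 to 3668 in propylparaben tumors and 1988 to 3348 in vehicle tumors. Of 14 T cell markers 8 passed, and all 14 together had summed levels of 20.3 to 65.5, 8.70 to 88.1 and 10.3 to 48.0 in the same groups. On the first principal component of all genes 7 libraries stood apart. They were 1 propylparaben tumor (replicate 1) and 6 vehicle tumors (replicates 7, 8, 10, 13, 14 and 19). These libraries were picked from the same expression values, and leaving them out also leaves fewer vehicle tumors. Fits without them are therefore no separate check. Tumor pieces hold several cell types, and in such bulk RNA fewer cells of a type cannot be told apart from less RNA per cell.

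Per kilobase of exon, B2m was at the highest level of the 9 and Nlrc5 at the lowest. The mean level per kilobase over the 59 tumors was 1375 ± 365 for B2m, 294 ± 68.7 for H2-K1 and 191 ± 50.7 for H2-D1 (SD). These 3 cell surface chains kept this order in all 59 tumors. Tapbp followed with 37.7 ± 6.78 and Tap2 with 23.2 ± 8.51 per kilobase, Tap2 being below Tapbp in 58 of 59 tumors. Psmb8 (16.5 ± 3.71) and Tap1 (16.1 ± 4.20) did not differ beyond their spread, with Psmb8 the higher in 31 of 59 tumors. Psmb9 had 9.87 ± 3.01 and Nlrc5 0.649 ± 0.341 per kilobase. Length here is the union of all annotated exons of a gene, 3381 bases for Psmb8, 5476 for Tap1 and 3660 for Psmb9. The order of members at like levels therefore also depends on the annotation. The library kit is not given in the sources used here, and a kit that reads transcript ends would not scale with length.

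In GENCODE M21 on GRCm38 all 9 are protein coding, 7 of them on chromosome 17 in the MHC region, with B2m on chromosome 2 and Nlrc5 on chromosome 8. Psmb9 (34181987 to 34187764, minus strand), Tap1 (34187553 to 34197225, plus), Psmb8 (34197721 to 34201454, plus) and Tap2 (34203527 to 34216321, plus) are neighbors on chromosome 17. Exons of Tap1 and Psmb9 overlap by 212 bases on opposite strands, and since the strand setting is not given, reads there cannot be told apart. Tapbp shares 149 exon bases with Zbtb22 on its own strand. On the opposite strand Tapbp shares 904 exon bases with Gm19412, Tap2 533 with Gm15821 and Psmb8 498 with Gm20496, so the same limit holds there. The mean levels of Gm19412, Gm15821 and Gm20496 were 0.962, 0.126 and 0.0146. H2-K1 and H2-D1 have near-identical relatives: 9.63% of the 50-base words in H2-K1 transcripts and 12.8% of those in H2-D1 transcripts also occur in transcripts of other genes. Between the pair themselves 4.08% of H2-K1 words and 5.44% of H2-D1 words were shared, so levels of the heavy chains may include some reads of relatives. Sharing was not limited to the heavy chains: 23.2% of words of Tapbp, 11.9% of Psmb8 and 11.6% of Tap2 occurred in other genes, mostly Gm19412, Gm20496 and Gm15821. No word of B2m was shared with another gene.

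The heavy chains and B2m had somewhat higher medians in both paraben groups, with wide overlap. H2-K1, a classical class I heavy chain, had a lowest, median and highest level of 452, 890.0 and 1308 in methylparaben tumors, 604, 837 and 1293 in propylparaben tumors, and 455, 796 and 1228 in vehicle tumors. H2-D1, the other classical heavy chain of this strain, had 289, 496 and 851 in methylparaben tumors, 288, 492 and 722 in propylparaben tumors, and 237, 429 and 749.8 in vehicle tumors. B2m, the light chain, had 695, 1184 and 2186 in methylparaben tumors, 626, 1168 and 1825 in propylparaben tumors, and 624, 1063 and 1812 in vehicle tumors. No more than 1 tumor of either paraben group lay above the highest vehicle tumor in any of the 3 genes. Methylparaben replicate 5 was the highest of all 59 tumors in all 3, and vehicle replicate 8 the lowest in H2-D1 and B2m.

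Of the peptide transporter and its loading partner, Tap2 had the widest spread between tumors. Tap1 had a lowest, median and highest level of 43.5, 83.2 and 124 in methylparaben tumors, 57.5, 84.1 and 124 in propylparaben tumors, and 55.7, 88.6 and 172 in vehicle tumors. Tap2 had 35.4, 98.1 and 126 in methylparaben tumors, 45.8, 95.8 and 126 in propylparaben tumors, and 10.02, 81.3 and 148 in vehicle tumors. Tapbp, the chaperone that bridges transporter and heavy chain, had 88.1, 142 and 181 in methylparaben tumors, 99.6, 143 and 189 in propylparaben tumors, and 59.1, 129.6 and 169 in vehicle tumors. Every paraben tumor thus lay inside the vehicle range for Tap2, whereas 3 methylparaben and 3 propylparaben tumors lay above it for Tapbp. The SD of log2 Tap2 was 0.49 in methylparaben, 0.46 in propylparaben and 0.96 in vehicle tumors. Vehicle replicate 6 had 10.02 for Tap2, from 19 reads, beside 98.6 for Tap1. Vehicle replicates 15, 18 and 10 followed with 30.3, 34.97 and 36.2, and the 3 highest Tap2 levels (148, 147 and 139.5) were also in vehicle tumors, replicates 11, 5 and 7.

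The immunoproteasome subunits had like medians in the 3 groups. Psmb8, which replaces Psmb5 in the immunoproteasome, had a lowest, median and highest level of 36.8, 57.9 and 78.3 in methylparaben tumors, 38.0, 55.4 and 74.2 in propylparaben tumors, and 28.1, 57.7 and 80.1 in vehicle tumors. Psmb9, which replaces Psmb6, had 20.7, 37.7 and 53.04 in methylparaben tumors, 21.9, 36.1 and 51.8 in propylparaben tumors, and 14.8, 36.3 and 72.2 in vehicle tumors. For both genes the lowest and the highest tumor of all 59 were vehicle tumors. Nlrc5, the transactivator, had 1.18, 4.73 and 12.6 in methylparaben tumors, 1.92, 4.93 and 10.9 in propylparaben tumors, and 2.21, 5.80 and 15.7 in vehicle tumors. Its levels rest on 3 to 38 reads per library, so counting error weighs more on Nlrc5 than on any other member.

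**Figure D1:**
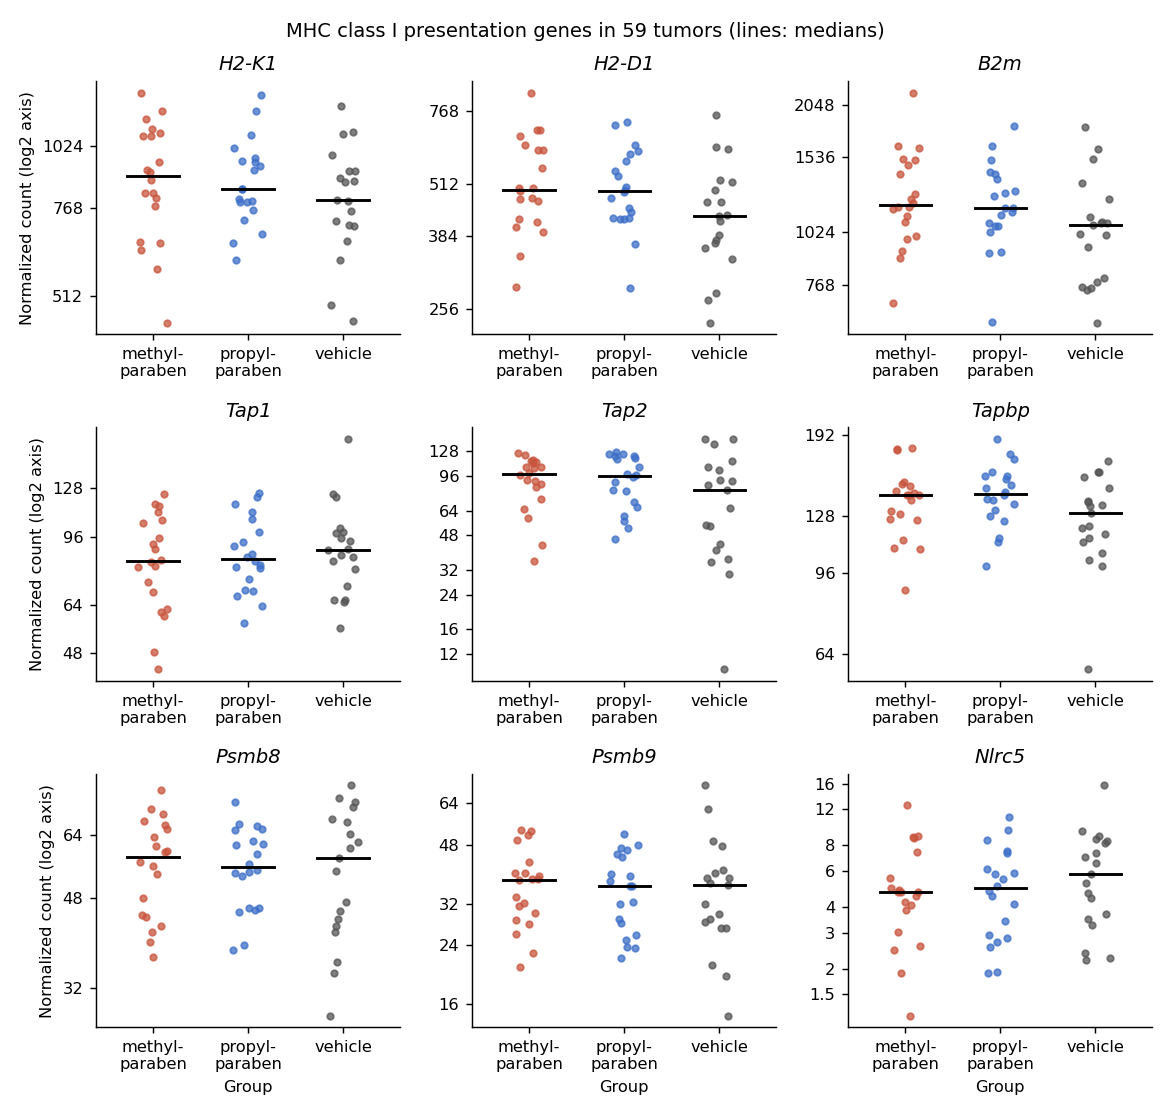
Normalized count (y axis, log2 scale) of each of the 9 genes in every tumor, with methylparaben, propylparaben and vehicle tumors from left to right; each point is 1 tumor and each line a group median. The groups overlap for every gene, and the lowest Tap2 points, down to 10.02, are in the vehicle group.

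None of the 9 genes passed the test between methylparaben and vehicle tumors (limma, Benjamini-Hochberg adjusted over 14487 genes, 0.05). Over all genes tested, 191 (1.32%) passed. The log2 fold change was 0.27 ± 0.12 for H2-D1 (SE, limma p = 0.0272, adjusted p = 0.169), 0.25 ± 0.12 for B2m (p = 0.0375, adjusted p = 0.197) and 0.42 ± 0.20 for Tap2 (p = 0.0441, adjusted p = 0.212). These 3 were the members with an unadjusted p under 0.05, a share met by 22.1% of all genes. H2-K1 differed by 0.12 ± 0.11, Tapbp by 0.14 ± 0.09, Psmb8 by 0.04 ± 0.11, Psmb9 by 0.07 ± 0.14, Tap1 by -0.11 ± 0.12 and Nlrc5 by -0.21 ± 0.20. The median of the 9 was 0.12, with 7 above 0, against a median of 0.0053 and 51.2% above 0 over all genes tested. Count tests on the recovered reads with edgeR and DESeq2 also called none of the 9, beside 585 and 640 of the 14487 genes.

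Propylparaben tumors gave nearly the same values against the same vehicle tumors. Again none of the 9 passed, beside 4 of all genes (0.0276%). An unadjusted p under 0.05 was reached by Tapbp, with a log2 fold change of 0.19 ± 0.09 (SE, limma p = 0.0340, adjusted p = 0.232), and by Tap2, with 0.43 ± 0.20 (p = 0.0401, adjusted p = 0.248), as it was by 18.4% of all genes. The other log2 fold changes were 0.23 ± 0.12 for H2-D1, 0.20 ± 0.12 for B2m, 0.12 ± 0.11 for H2-K1, 0.04 ± 0.11 for Psmb8, 0.02 ± 0.14 for Psmb9, -0.04 ± 0.12 for Tap1 and -0.19 ± 0.20 for Nlrc5. Their median was 0.12, with 7 of 9 above 0, against -0.0005 and 49.8% over all genes. No member was called by edgeR or DESeq2, beside 31 and 231 of the 14487 genes. Both paraben comparisons share the vehicle tumors, so their likeness is no separate evidence.

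**Figure D2:**
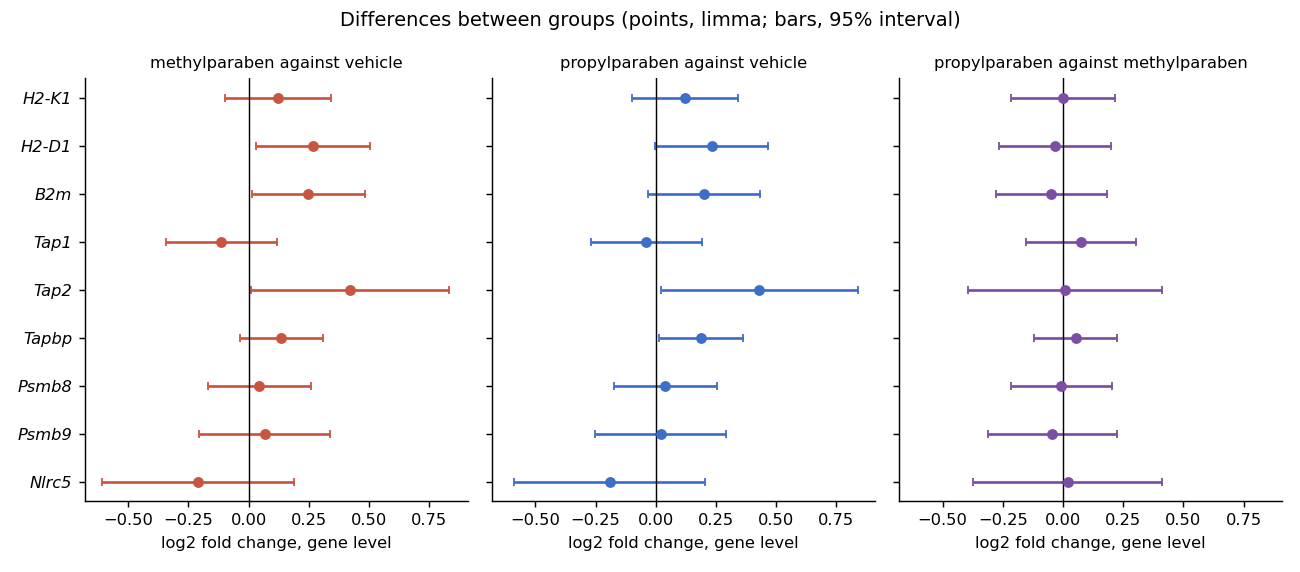
Log2 fold change of each member at gene level (x axis) for methylparaben against vehicle, propylparaben against vehicle and propylparaben against methylparaben, with the limma estimate as a point and its 95% interval as a bar. Intervals of the right panel all cross 0, and Tap2 and Nlrc5 have the widest bars in every panel.

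H2-D1 had smaller differences from vehicle in fits that left out libraries or took cell markers into account, and B2m in the fit that left out libraries. Without the 7 libraries named above, the log2 fold change of H2-D1 was 0.10 for methylparaben and 0.09 for propylparaben against vehicle. That of B2m was 0.11 and 0.07. Those libraries were picked from these same values and are mostly vehicle tumors. They include vehicle replicate 8, the lowest in H2-D1 and B2m, so this fit is no separate check. Adjusting for T cell, macrophage, B cell, fibroblast and adipocyte scores left H2-D1 at 0.09 and 0.08 in the same comparisons. The fibroblast and adipocyte lists themselves had median log2 fold changes of 0.47 and 1.22 for methylparaben, and 0.54 and 0.87 for propylparaben. The scores may therefore not be separate from the treatment groups. Tap2 gave 0.46 for both without those 7 libraries, and 0.28 and 0.29 when vehicle replicate 6 alone was left out. Over all 71 alternatives the log2 fold change of Tap2 ran from 0.25 to 0.49 in both comparisons. No member passed the test in any of these fits. With the scores, 0 of all 14487 genes passed in either comparison, and without the 7 libraries 0 of 14527, so the lack of calls there is not particular to the members.

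The methyl and the propyl ester were compared directly on the 9 genes, and no gene of the 14487 tested passed (0%). No member had an unadjusted p under 0.05, beside 2.15% of all genes. The count tests edgeR and DESeq2 called none of the 9, beside 21 and 0 of all genes. The log2 difference, propylparaben minus methylparaben, was 0.07 for Tap1 and -0.05 for B2m, the ends of the range, with a median of 0.0006. The 95% intervals bound what could have been missed: -0.12 to 0.22 for Tapbp, -0.22 to 0.22 for H2-K1, -0.28 to 0.18 for B2m, and -0.40 to 0.41 for Tap2. Differences of these sizes between the esters are therefore not excluded.

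Intronic reads, which come mostly from RNA not yet spliced, gave no call either. None of the 9 members and none of 14281 introns tested (0%) passed in methylparaben against vehicle, in propylparaben against vehicle (0%) or in propylparaben against methylparaben (0%). By limma, 13.3%, 12.1% and 3.47% of all introns had an unadjusted p under 0.05 in these comparisons, and edgeR and DESeq2 called no member but 48 and 56 of all introns for methylparaben. Of the members, Tap2 alone had an unadjusted p under 0.05, and only for methylparaben against vehicle. Its intron level had a lowest, median and highest value of 1.92, 10.99 and 23.5 in methylparaben tumors, 5.41, 14.3 and 24.0 in propylparaben tumors, and 5.33, 15.8 and 42.9 in vehicle tumors. The log2 fold change of Tap2 introns was -0.54 ± 0.21 for methylparaben against vehicle (SE, limma p = 0.0136, adjusted p = 0.255), opposite in sign to its gene level. Psmb8 introns, with 0 to 11 reads per library, gave 0.71 ± 0.36 in the same comparison (adjusted p = 0.388).

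The gene level minus the intron level was tested for the 6 members with means of at least 10 in both tables: H2-K1, B2m, Tap2, Tapbp, Psmb8 and Psmb9. None passed in any comparison, as none of the 6667 genes did (0% in methylparaben against vehicle, 0% in propylparaben against vehicle and 0% in propylparaben against methylparaben). For methylparaben against vehicle, 2 of the 6 had an unadjusted p under 0.05, beside 6.27% of all genes. Tap2 gave the larger of these differences, a log2 value of 0.97 ± 0.29 (SE, limma p = 0.00131, adjusted p = 0.396), the 22nd smallest p of the 6667. Psmb8 gave -0.67 ± 0.32 (p = 0.0432, adjusted p = 0.785). In propylparaben against vehicle the pair under 0.05 was Tap2, with 0.59 ± 0.29 (p = 0.0441), and B2m, with 0.24 ± 0.11 (p = 0.0271), adjusted p = 0.671 and 0.654, beside 7.27% of all genes. Between the esters no member was under 0.05. Tap2 introns rest on 1 to 27 reads per library. Vehicle replicate 6, with a Tap2 level of 10.02 in genes and 18.0 in introns, enters both comparisons with vehicle. The Tap2 values without that tumor are not given here.

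The balance of immunoproteasome and constitutive subunits was also taken per tumor, as the log2 ratio of Psmb8 to Psmb5 and of Psmb9 to Psmb6. The log2 ratio of Psmb8 to Psmb5 averaged 1.02 ± 0.32 in methylparaben tumors, 1.03 ± 0.42 in propylparaben tumors and 0.83 ± 0.51 in vehicle tumors (SD). That of Psmb9 to Psmb6 averaged -1.895 ± 0.44 in methylparaben, -1.89 ± 0.43 in propylparaben and -2.03 ± 0.61 in vehicle tumors. The differences from vehicle were 0.19 ± 0.14 and 0.20 ± 0.15 for the Psmb8 ratio, and 0.14 ± 0.17 and 0.15 ± 0.17 for the Psmb9 ratio, methylparaben first (SE). No difference in mean ratio between groups passed: the smallest p of the 6 two-sided permutation tests was 0.174, 0.598 after adjustment over the 6. Of 14 genes of the constitutive proteasome none passed. Their median log2 fold changes were -0.11 for methylparaben and -0.14 for propylparaben, with 0 of 14 above 0 in both, also under median-of-ratios scaling and quantile normalization. Without the 7 libraries named above the medians were -0.05 and -0.10, with 2 and 0 of 14 above 0. Psma7, a core subunit, came nearest, with -0.23 ± 0.07 for methylparaben (limma, adjusted p = 0.0650) and -0.27 ± 0.07 for propylparaben (adjusted p = 0.0688).

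Genes around the members in the same pathway gave no call either. Of 18 other class I pathway genes none passed in either comparison with vehicle, with median log2 fold changes of 0.05 for methylparaben and 0.03 for propylparaben. Lnpep, an aminopeptidase, and Tapbpl, which edits peptides on class I molecules, came nearest but did not pass. Lnpep averaged 104 ± 15.2 in methylparaben tumors, 107 ± 22.7 in propylparaben tumors and 88.7 ± 20.8 in vehicle tumors (SD), with limma adjusted p = 0.0900 and 0.0991. Tapbpl averaged 22.2 ± 4.64, 21.5 ± 3.90 and 17.8 ± 5.48 in the same groups, with adjusted p = 0.0797 and 0.140. Of 18 non-classical class I genes 13 passed the filter and none the test. H2-T24 had the smallest p of the list for propylparaben, with a log2 fold change of 0.54 ± 0.20 (limma, adjusted p = 0.141), at a level near the filter.

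Among 12 interferon gamma signaling genes, 11 passed the filter and 1 the test in methylparaben tumors. Stat3, a transcription factor of cytokine signaling, averaged 500.2 ± 63.7 in methylparaben tumors, 494 ± 74.2 in propylparaben tumors and 402 ± 125 in vehicle tumors (SD). It rose in methylparaben tumors by 0.38 ± 0.10 on the log2 scale (limma, adjusted p = 0.0456), with 0.35 ± 0.10 for propylparaben (adjusted p = 0.0774). The call was lost under quantile normalization, where 0 of the 11 passed, and without the 7 libraries named above, where no gene passed at all. Ifng, the cytokine itself, stayed under the filter, with mean levels of 0.0604, 0.0393 and 0.0716 in methylparaben, propylparaben and vehicle tumors. None of 16 interferon gamma target genes tested and none of 15 type I interferon target genes passed in either comparison with vehicle. Gbp2, an interferon-induced GTPase, had the smallest p of the gamma targets for methylparaben, with 0.27 ± 0.15 for methylparaben (adjusted p = 0.266). Mx1, an antiviral GTPase, had that of the type I targets for propylparaben, with -0.27 ± 0.19 (adjusted p = 0.457). Class II presentation markers had larger medians, 0.45 for methylparaben and 0.38 for propylparaben, but none of 7 passed, and the medians were 0.04 and 0.02 without the 7 libraries. H2-Aa, a class II alpha chain, gave 0.52 ± 0.18 for methylparaben (limma, adjusted p = 0.0882).

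Levels of the members were correlated from tumor to tumor. Over the 59 tumors, with group means removed, 34 of the 36 pairs of members had a correlation with an adjusted p under 0.05 (two-sided permutation within groups, Benjamini-Hochberg over 36). Pearson r ran from 0.04 to 0.94, with a median of 0.55, and no r was below 0. H2-K1 with H2-D1 gave r = 0.94 (rho = 0.93), H2-D1 with B2m 0.93 (rho = 0.92) and H2-K1 with B2m 0.90 (rho = 0.92), each with an adjusted permutation p of 2.12e-05, the smallest that 100000 resamples allow here. Psmb8 with Psmb9 gave r = 0.74 (rho = 0.74), and Tap1 with Psmb9, which share a promoter, 0.64 (rho = 0.68). Within single groups 31 pairs of 36 passed among methylparaben tumors, 19 among propylparaben tumors and 14 among vehicle tumors. H2-K1 with H2-D1 gave r = 0.95, 0.93 and 0.95 there. Without the 2 tumors farthest from the median the count stayed at 34, with r = 0.93 for H2-K1 with H2-D1. These tumors share library preparation, scaling and a mix of cell types, and the part of each in the correlations was not tested. The share of pairs of other genes that would pass the same test was not computed. The count is therefore not shown to be particular to the members.

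**Figure D3:**
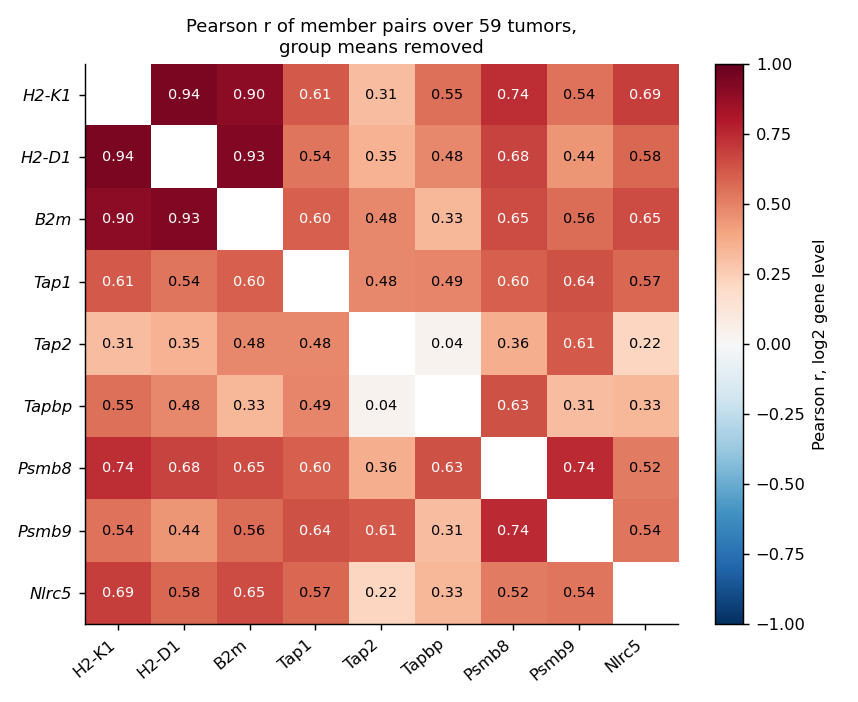
Pearson r for each pair of the 9 genes over 59 tumors on log2 gene levels with group means removed; color and printed number give r from -1 to 1. The block of H2-K1, H2-D1 and B2m holds the 3 highest values, 0.90 to 0.94, and Tap2 with Tapbp the lowest, 0.04.

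Tap2 was in both of the pairs that did not pass, with Tapbp (r = 0.04, rho = 0.16, adjusted permutation p = 0.804) and with Nlrc5 (r = 0.22, adjusted p = 0.113). By rank the relation of Tap2 with Nlrc5 did pass (rho = 0.29, adjusted permutation p = 0.0326). Tap2 with Tap1, its partner in the transporter, gave r = 0.48 (rho = 0.61, adjusted permutation p = 0.000263). Within groups that relation was 0.54 among methylparaben, 0.72 among propylparaben and 0.40 among vehicle tumors, the last not passing by Pearson r (adjusted permutation p = 0.139) but passing by rank (rho = 0.58, adjusted permutation p = 0.0311). The residual SD of log2 Tap2 was 0.67, larger than that of 95.0% of the 9143 genes with a mean of at least 10, whereas Tap1 had 0.37 (74.7%) and Tapbp 0.28 (46.5%).

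Gene and intron levels followed each other for 6 of the 9 members (two-sided permutation within groups, adjusted over 9). B2m gave r = 0.81 (rho = 0.82), Nlrc5 0.74 (rho = 0.74), H2-K1 0.59 (rho = 0.54), Psmb9 0.57 (rho = 0.51), Psmb8 0.52 (rho = 0.56) and Tapbp 0.41 (rho = 0.25). For the other 3 the r was 0.03 for Tap2 (rho = 0.05, adjusted permutation p = 0.804), 0.07 for Tap1 (rho = 0.13, adjusted p = 0.700) and 0.27 for H2-D1 (rho = 0.20, adjusted p = 0.0595). Within methylparaben, propylparaben and vehicle tumors 6, 3 and 6 of the 9 passed. Among vehicle tumors Tap1 gave r = 0.48 (adjusted permutation p = 0.0551) and passed by rank (rho = 0.64, adjusted permutation p = 0.00911). Its r was -0.11 among methylparaben and -0.01 among propylparaben tumors. The share of all genes whose gene and intron levels would pass this test was not computed. Without the 7 libraries named above 7 of 9 passed, H2-D1 among them with r = 0.43 (rho = 0.38, adjusted permutation p = 0.00230). Tap1 and H2-D1 had at most 6 and 10 intronic reads per library, while Tap2 had 1 to 27. Without the 2 tumors farthest from the intron median Tapbp gave r = 0.13, so its Pearson relation over all 59 rests on those tumors. By rank Tapbp did not pass over all 59 (adjusted permutation p = 0.0950), but it did without the 7 libraries (rho = 0.36, adjusted permutation p = 0.0147).

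**Figure D4:**
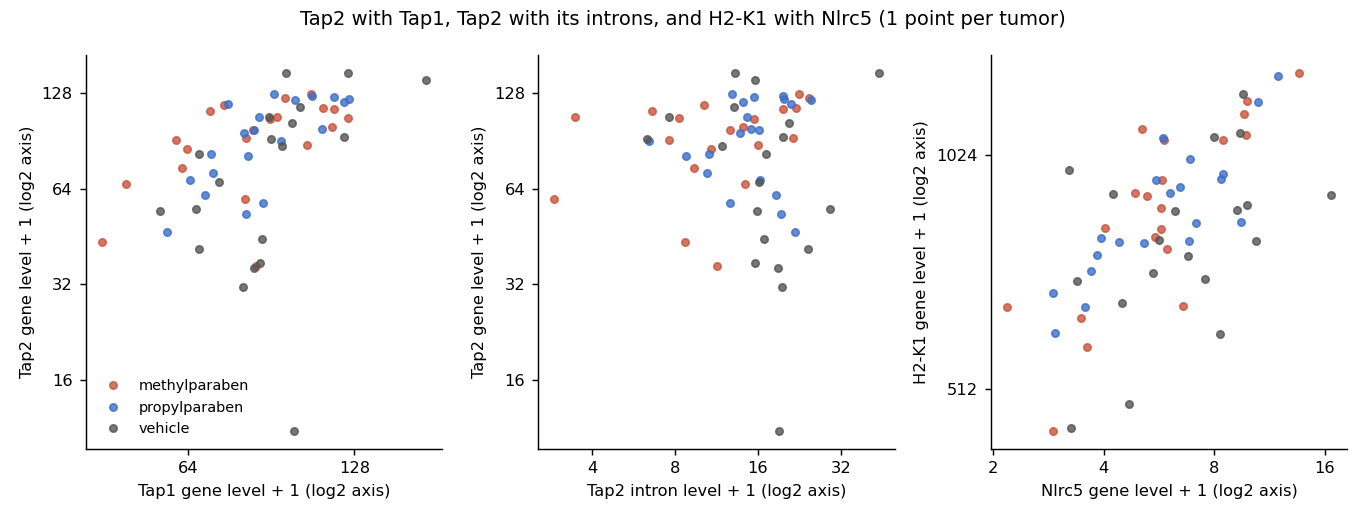
Levels plus 1 on log2 axes with 1 point per tumor, colored by group: Tap2 against Tap1, Tap2 gene level against Tap2 intron level, and H2-K1 against Nlrc5. The point at the bottom of the first 2 panels is vehicle replicate 6, with a Tap2 level of 10.02, and H2-K1 tends to be higher where Nlrc5 is higher in the right panel.

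Nlrc5 was set against each of the other 8 members. Over 59 tumors 7 of 8 members correlated with it (two-sided permutation within groups, adjusted over 8): H2-K1 with r = 0.69 (rho = 0.68), B2m with 0.65 (rho = 0.66), H2-D1 with 0.58 (rho = 0.57), Tap1 with 0.57 (rho = 0.53), Psmb9 with 0.54 (rho = 0.57), Psmb8 with 0.52 (rho = 0.49) and Tapbp with 0.33 (rho = 0.31). The highest adjusted permutation p of the 7 was 0.0133, and Tap2 passed by rank only. Within groups the counts were these. Among methylparaben tumors 7 of 8 passed, with r of 0.43 to 0.81, and among propylparaben tumors 6 of 8, with r of 0.24 to 0.84. Among vehicle tumors none of 8 passed, with r of 0.07 to 0.50 and a smallest adjusted permutation p of 0.189. Whether r differs between the groups was not tested. Of the 9143 genes with a mean of at least 10, 13 had r above 0.6 with Nlrc5. The share of all genes that would pass the same permutation test with Nlrc5 was not computed. Leaving out the 2 tumors farthest from the median of Nlrc5, or adding 10 in place of 1 before the log, again gave 7 of 8.

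All 9 members correlated with the mean level of 16 interferon gamma target genes and with that of 15 type I interferon target genes (two-sided permutation within groups, adjusted over the 63 relations of 9 members with 7 scores, of which 36 passed). The members themselves were left out of these scores. The share of all genes that would pass with the same scores was not computed. For interferon gamma targets r was highest for B2m (0.80, rho = 0.84), Tap1 (0.77, rho = 0.77) and H2-K1 (0.77, rho = 0.80), and lowest for Tap2 (0.48, rho = 0.54). Within groups 9 of 9 passed among methylparaben tumors (r of 0.63 to 0.90), 6 among propylparaben tumors (r of 0.22 to 0.79) and 7 among vehicle tumors (r of 0.43 to 0.82). For B2m it was 0.81 among methylparaben, 0.77 among propylparaben and 0.81 among vehicle tumors. For type I targets Tap1 led with 0.75 (rho = 0.74), and Tap2 was again lowest with 0.34 (rho = 0.43). Tap2 no longer passed with type I targets without the 2 farthest tumors (r = 0.24) or without the 7 libraries (r = 0.26). Within groups 8, 5 and 4 of 9 passed for type I targets among methylparaben, propylparaben and vehicle tumors.

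Markers of immune cells and of cell division were set against the members in the same way. H2-D1 gave r = 0.56 with 12 macrophage markers (rho = 0.53), 0.52 with 8 T cell markers (rho = 0.56) and 0.55 with 7 dendritic cell markers (rho = 0.54), each with an adjusted permutation p of 7.41e-05. H2-K1 and B2m passed with all 3 scores as well. Tap1, Tap2 and Psmb9 passed with none of them over all groups, and Tap1 gave r = 0.00 with macrophage markers (rho = 0.04). Among methylparaben tumors alone, however, Tap1 was the member that passed with T cell markers (r = 0.69) and dendritic cell markers (r = 0.67), and it passed with both without the 7 libraries. By rank, Psmb8 and Nlrc5 did not pass with T cell markers (adjusted permutation p = 0.0718 and 0.0734), while Tapbp did (0.0253). Taken by group, H2-K1, H2-D1 and B2m passed with T cell markers only among vehicle tumors, and with macrophage markers among propylparaben and vehicle tumors. Among methylparaben tumors none of them passed with any of the 3 scores. Whether the members differ in these relations was not tested. The share of all genes that would pass with these scores, or with the mitosis genes below, was not computed. In the comparisons with vehicle none of the 8 T cell, 12 macrophage, 7 dendritic cell and 11 epithelial markers tested passed by limma. Their median log2 fold changes were 0.14, 0.21, 0.15 and 0.06 for methylparaben, and 0.15, 0.25, 0.21 and 0.04 for propylparaben. Within groups the r of H2-D1 with macrophage markers was 0.10 among methylparaben, 0.68 among propylparaben and 0.77 among vehicle tumors, and 0.43 over all groups without the 7 libraries named above. Against 12 mitosis genes 6 members had a negative correlation that passed, H2-D1 the strongest with r = -0.63 (rho = -0.65). That relation was -0.52 among methylparaben (adjusted permutation p = 0.0501), -0.61 among propylparaben and -0.74 among vehicle tumors. No member correlated with 11 epithelial markers, with r of -0.22 to 0.21. Of the 12 mitosis genes 2 fell in methylparaben tumors and none passed in propylparaben tumors. The log2 fold change for methylparaben was -0.49 ± 0.13 for Ccna2 and -0.63 ± 0.17 for Ccnb1 (limma, adjusted p = 0.0456 and 0.0492), both cyclins. Neither call held without the 7 libraries. The part of cell mix and division in the class I levels was not tested beyond the covariate fit above.

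**Figure D5:**
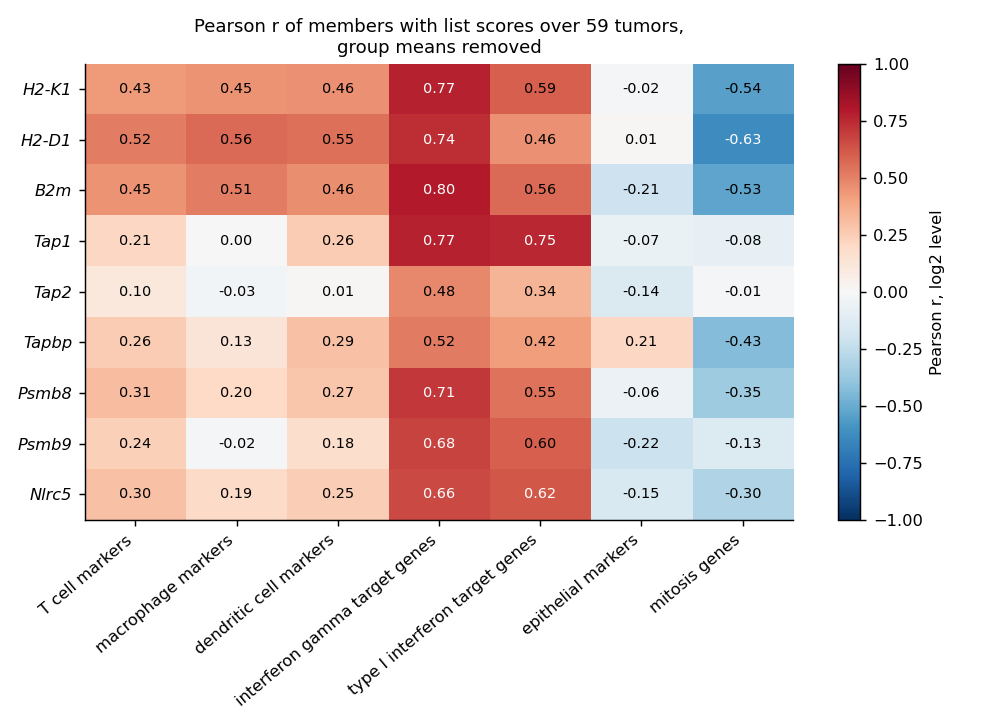
Pearson r of each member (rows) with the mean log2 level of 7 gene lists (columns) over 59 tumors, group means removed; color and printed number give r. The interferon columns are positive for all 9 genes, and the mitosis column is most negative for H2-D1, at -0.63.

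Genes outside the 9 with the most similar pattern were ranked by their mean Pearson r with all 9 members over the 59 tumors, among genes with a mean of at least 10. Among the first 10 were H2-T22 (0.68), H2-Q7 (0.68), Irgm2 (0.66), Gbp2 (0.66), H2-Q4 (0.64), Iigp1 (0.63), Trim30a (0.61), Rtp4 (0.60) and Igtp (0.60). H2-T22, H2-Q7 and H2-Q4 are non-classical class I genes that resemble H2-K1 and H2-D1 in sequence, so some reads may be shared. H2-Q7 was closest to H2-K1 (r = 0.86) and H2-Q4 to B2m (r = 0.88).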

How the data were processed

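RNA of 59 tumors was measured by RNA sequencing, and the authors deposited normalized counts of genes (a signal, per the labels) and, in another table, of introns. Per the submitters' processing notes, bcl2fastq 2.20.0.422, STAR 2.6.1d and HTSeq 0.10.0 were used with GRCm38; annotation, strand setting and library kit: not given in the sources used here. Deposited values were whole multiples of a factor per library (100% within 1e-06 reads) and equalled CPM with TMM scaling within 5e-10 %, so reads were recovered. Reads outside features made up 13.7 to 35.5% of a library. No column was left unused.

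log2(value + 1) was tested with limma 3.58.1 (trend, R 4.3.3) in 1 fit of 59 tumors, with Benjamini-Hochberg adjustment over genes or introns with a mean of at least 1, or over genes with both means of at least 10 for gene minus intron. edgeR 4.0.16 and DESeq2 1.42.0 on recovered reads were alternatives. Fold changes on this scale understate those of low genes such as Nlrc5. Correlations used numpy 2.4.6 and scipy 1.17.1, with 100000 permutations within groups. Exon lengths and overlaps came from GENCODE M21, promoters from RefSeq. On simulated data over 14487 genes, methylparaben against vehicle, the limma fit recovered 91% of genes changed 1.5-fold and all of those changed 2-fold, with 6 false calls. The changed genes were drawn only from genes at levels above that of Nlrc5. Reads were simulated independently between genes, with no libraries that stand apart. These shares therefore do not cover Nlrc5, and do not tell what could have been missed for the other members in these tumors.

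Members, gene lists and tests were chosen with earlier results of these data known. Named are the 9 members, for each list the genes that passed or those with the smallest p, and genes among the 10 most like the members, of which 1 is not reported here. Cell type lists not detailed in the results, counted for methylparaben and then propylparaben against vehicle by limma, had 0 calls in both: B cell (3 of 8 tested), fibroblast (10), endothelial (9) and adipocyte markers (10), with median log2 fold changes of 0.11 and 0.09, 0.47 and 0.54, 0.22 and 0.27, and 1.22 and 0.87. Replicates were numbered in accession order. No pair of libraries in a group agreed within sampling noise (chi-square over its degrees of freedom at least 1.97 over 11434 genes).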

Additional observations from a re-analysis of the deposited data

How the results depend on the processing

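The count of members called was 0 in genes and introns for all 3 comparisons under each of 71 alternatives, among them pseudocounts, filters, scalings, array weights, 5 tissue scores, edgeR, DESeq2 and each of the 59 libraries left out in turn. It was also 0 for the gene minus intron level under each of 66, with edgeR, DESeq2, other scalings and no filter not run there. Under the filter of a mean of at least 10, Nlrc5 was not tested in genes, nor were H2-D1 and Tap1 in introns. The main fits of introns, of gene minus intron level and between the esters called no feature at all. A count of 0 members there follows from that. The count over all genes was less steady. For methylparaben against vehicle it was 191, and 585 with edgeR, 640 with DESeq2, 334 at a mean of at least 10, 25 with no filter, 39 with array weights, 2 with only the 2 groups compared, and 0 with tissue scores or without the 7 libraries that stood apart. It ran from 1 without vehicle replicate 8 to 932 without vehicle replicate 5. For propylparaben against vehicle it was 4, and 31 with edgeR, 231 with DESeq2, 16 at a mean of at least 10, 2 with no filter, 0 with only the 2 groups, with tissue scores or without the 7 libraries, and between 1 without propylparaben replicate 8 and 424 without vehicle replicate 5. Between the esters edgeR called 21. The cause was not tested. For introns, with 0 calls, edgeR gave 48 for methylparaben and 0 for propylparaben against vehicle, and DESeq2 56 and 12. No paired analysis was possible because nothing links tumors across groups.

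Correlations with Nlrc5 that passed numbered 7 of 8, and 0 within vehicle tumors. Correlations with scores numbered 36 of 63, and 19, 18 and 22 within methylparaben, propylparaben and vehicle tumors, where fewer samples enter; 35 passed without the 7 libraries, a choice made after seeing the data. Pair and gene to intron correlations and subunit ratios were likewise added after the data were seen. Depth limits Nlrc5 most, at 3 to 38 reads per library.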

Other observations

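Genes whose levels followed Tap2 most closely were looked up after its spread had been seen, and are given as a description over 59 tumors with group means removed. Ost4, a subunit of the oligosaccharyltransferase, had r = 0.83 with Tap2, and Tmem128 0.83, Gramd4 0.82, Mrps28 0.81 and Tor1aip1 0.79. Of 9143 genes with a mean of at least 10, 120 had r above 0.6 with Tap2 and none below -0.6. Of the 5 genes named, Ost4, Tmem128, Gramd4 and Mrps28 had r between -0.09 and 0.00 with H2-K1, while Tor1aip1 had 0.56. With Tapbp the same 4 had r of -0.30 to -0.36.

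H2-D1 had the most genes on both sides of the members: 152 with r above 0.6 and 135 below -0.6. B2m had 65 and 31, H2-K1 45 and 27, and Tapbp 16 and 18. Tap1, with 53 above 0.6, had none below -0.6, nor had Psmb8, Psmb9 or Nlrc5.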
